A study of Mus musculus with 6 samples.

Results

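The open chromatin listed around the T cell coreceptor genes Cd4, Cd8a and Cd8b1 and around Zbtb7b, the gene for the transcription factor ThPOK, is described here for the mouse cell line Beko, which is labelled as progenitor T cells. A peak belonged to a locus when it overlapped the body of a gene or the 50 kb to either side of it, and the neighbouring genes Cd8b1 and Cd8a were taken as 1 locus with their shared interval counted once. The 3 loci held 36 of the 32527 peaks in the list, with 13 at Cd4, 12 at Cd8b1 and Cd8a and 11 at Zbtb7b. ATAC-Seq, in which a transposase inserts adapters into accessible DNA, had been done on 6 libraries of Beko cells. The cells of 3 libraries were treated for 24 h with DAPT, a gamma-secretase inhibitor (GSI) that blocks the cleavage of Notch, and those of the other 3 with the solvent DMSO. The sources used here give the dose of DAPT in different units, so it is left out. All libraries come from a single cell line, and the labels do not say whether replicates were separate cultures.

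The peaks of both treatments form 1 list, in which each peak has only a position. The list has no value per library, so GSI and DMSO were not compared here, no replicate error can be given and the depth behind a peak is unknown. All values below describe the merged list and no test was run. A listed peak says that a region passed the peak caller in enough libraries, not how accessible it was, and a region without a listed peak was not shown to be closed.

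CD4 and CD8 are membrane proteins that bind MHC class II and class I beside the T cell receptor. Progenitor T cells in the thymus lack both, become double positive, and then keep one of them: helper T cells keep CD4 and cytotoxic T cells keep CD8, which is a pair of alpha and beta chains encoded by Cd8a and Cd8b1. In CD8 lineage cells a silencer in the first intron of Cd4, bound by RUNX factors, keeps Cd4 off, while enhancers upstream of Cd4 act in the opposite direction. ThPOK directs cells to the CD4 lineage, and its gene also has a RUNX-bound silencer, upstream of the gene's distal promoter. The enhancers of the CD8 genes lie within and around the interval between Cd8b1 and Cd8a, and E8I is the best known of them.

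Peaks are numbered along each locus in the direction of transcription of the coreceptor gene or Zbtb7b, and coordinates are those of mouse build mm9. Distances run from the start of the coding transcript chosen for each gene to the centre of the peak, with negative values upstream. The first sequences show the peak nearest to the middle of the Cd4 silencer window, the upstream peak nearest to Cd8a and the peak in the window of the Zbtb7b silencer. The other peak in the Cd4 silencer window, Cd4-9, has no RUNX core and is printed further on. They are the central 300 bases of each peak, 5′ to 3′ in the direction of transcription of the locus. Capitals mark TGTGGT, the core of the RUNX motif, on either strand, so that a site on the other strand reads ACCACA.
Cd4-8, chr6:124836030-124836329, minus strand: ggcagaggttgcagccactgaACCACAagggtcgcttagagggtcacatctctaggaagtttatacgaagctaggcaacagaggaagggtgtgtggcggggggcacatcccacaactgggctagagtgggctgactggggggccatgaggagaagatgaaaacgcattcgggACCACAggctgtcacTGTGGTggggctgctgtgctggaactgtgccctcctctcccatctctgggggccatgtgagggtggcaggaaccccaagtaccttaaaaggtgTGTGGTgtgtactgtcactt
Cd8-9, chr6:71319428-71319727, plus strand: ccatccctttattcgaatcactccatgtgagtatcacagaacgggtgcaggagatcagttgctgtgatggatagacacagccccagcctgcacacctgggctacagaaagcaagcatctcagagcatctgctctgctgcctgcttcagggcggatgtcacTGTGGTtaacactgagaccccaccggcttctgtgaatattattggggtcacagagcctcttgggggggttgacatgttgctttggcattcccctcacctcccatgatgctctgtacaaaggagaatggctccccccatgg
Zbtb7b-5, chr3:89200208-89200507, minus strand: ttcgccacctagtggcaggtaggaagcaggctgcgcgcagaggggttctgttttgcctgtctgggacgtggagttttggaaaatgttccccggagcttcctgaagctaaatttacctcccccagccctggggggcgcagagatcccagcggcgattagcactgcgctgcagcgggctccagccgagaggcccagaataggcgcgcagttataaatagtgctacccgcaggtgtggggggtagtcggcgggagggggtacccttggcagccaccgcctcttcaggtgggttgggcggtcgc
The stretch of Cd4-8 held 4 sites and that of Cd8-9 held 1, while Zbtb7b-5 had no TGTGGT and is printed in lower case throughout. Among all peaks, 33% of distal and 13.6% of promoter peaks had a TGTGGT in the central 300 bases.

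The next sequence is the wide peak Cd4-6 at the proximal enhancer window of Cd4, shown for its pair of E-boxes. Capitals mark CAGCTG, a palindrome that reads the same on both strands and is bound by E proteins such as the products of Tcf3 and Tcf12. In the central 300 bases, 32.7% of all distal and 18.6% of all promoter peaks held it, and 6.84% of distal peaks held 2 or more.
Cd4-6, chr6:124850493-124850792, minus strand: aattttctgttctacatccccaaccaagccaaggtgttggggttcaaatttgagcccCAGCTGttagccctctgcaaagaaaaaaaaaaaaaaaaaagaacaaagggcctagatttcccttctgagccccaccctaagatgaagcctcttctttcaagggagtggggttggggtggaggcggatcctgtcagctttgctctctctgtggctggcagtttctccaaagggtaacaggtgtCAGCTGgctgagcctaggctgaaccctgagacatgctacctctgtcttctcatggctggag

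The last set shows 3 distal peaks with repeated cores of the RBPJ motif, since RBPJ is the DNA-binding factor of the Notch pathway that GSI acts on. Capitals mark TGGGAA, or TTCCCA where the site is on the other strand. This core was in the central 300 bases of 24.7% of all distal and 19.1% of all promoter peaks.
Cd4-9, chr6:124835244-124835543, minus strand: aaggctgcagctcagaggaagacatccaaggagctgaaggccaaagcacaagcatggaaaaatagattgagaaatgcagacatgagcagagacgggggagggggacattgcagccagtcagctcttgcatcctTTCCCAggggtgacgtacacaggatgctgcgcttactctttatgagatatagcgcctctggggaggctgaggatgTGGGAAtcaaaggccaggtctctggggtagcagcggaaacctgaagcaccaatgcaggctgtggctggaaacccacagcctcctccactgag
Cd8-7, chr6:71303710-71304009, plus strand: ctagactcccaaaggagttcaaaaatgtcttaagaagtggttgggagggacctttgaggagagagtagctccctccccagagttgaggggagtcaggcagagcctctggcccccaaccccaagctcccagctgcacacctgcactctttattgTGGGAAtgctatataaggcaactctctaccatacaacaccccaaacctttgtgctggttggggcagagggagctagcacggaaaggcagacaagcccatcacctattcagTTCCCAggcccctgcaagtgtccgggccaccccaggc
Cd8-8, chr6:71310804-71311103, plus strand: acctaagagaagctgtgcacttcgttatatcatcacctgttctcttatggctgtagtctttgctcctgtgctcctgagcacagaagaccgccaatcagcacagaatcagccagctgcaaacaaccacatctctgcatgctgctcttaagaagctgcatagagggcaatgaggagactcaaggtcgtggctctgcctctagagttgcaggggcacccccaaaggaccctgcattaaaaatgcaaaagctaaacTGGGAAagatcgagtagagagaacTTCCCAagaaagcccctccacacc
A match is a string of letters and no measurement of binding.

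Of the 36 peaks, 19 were promoter peaks, defined as no more than 1 kb away from an annotated start site, and the other 17 were distal. Promoter peaks thus made up 52.8% of the peaks at these loci and 35.4% of the whole list. The split differed between the loci. The Cd4 locus had 7 promoter and 6 distal peaks, the Cd8 locus 3 and 9, and the Zbtb7b locus 9 and 2. Most promoter peaks belonged to neighbouring genes, and the map of the loci shows them over those genes. A peak within 1 kb of a start of its own gene was listed for 3 of the 4 genes, Cd4, Cd8a and Cd8b1, but not for Zbtb7b. Over all 22380 protein-coding genes 46.9% had such a peak. A distal peak over the gene body was listed for Cd4, Cd8b1 and Zbtb7b and not for Cd8a, which is 3 of 4 genes against 21.9% of all protein-coding genes.

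**Figure D1:**
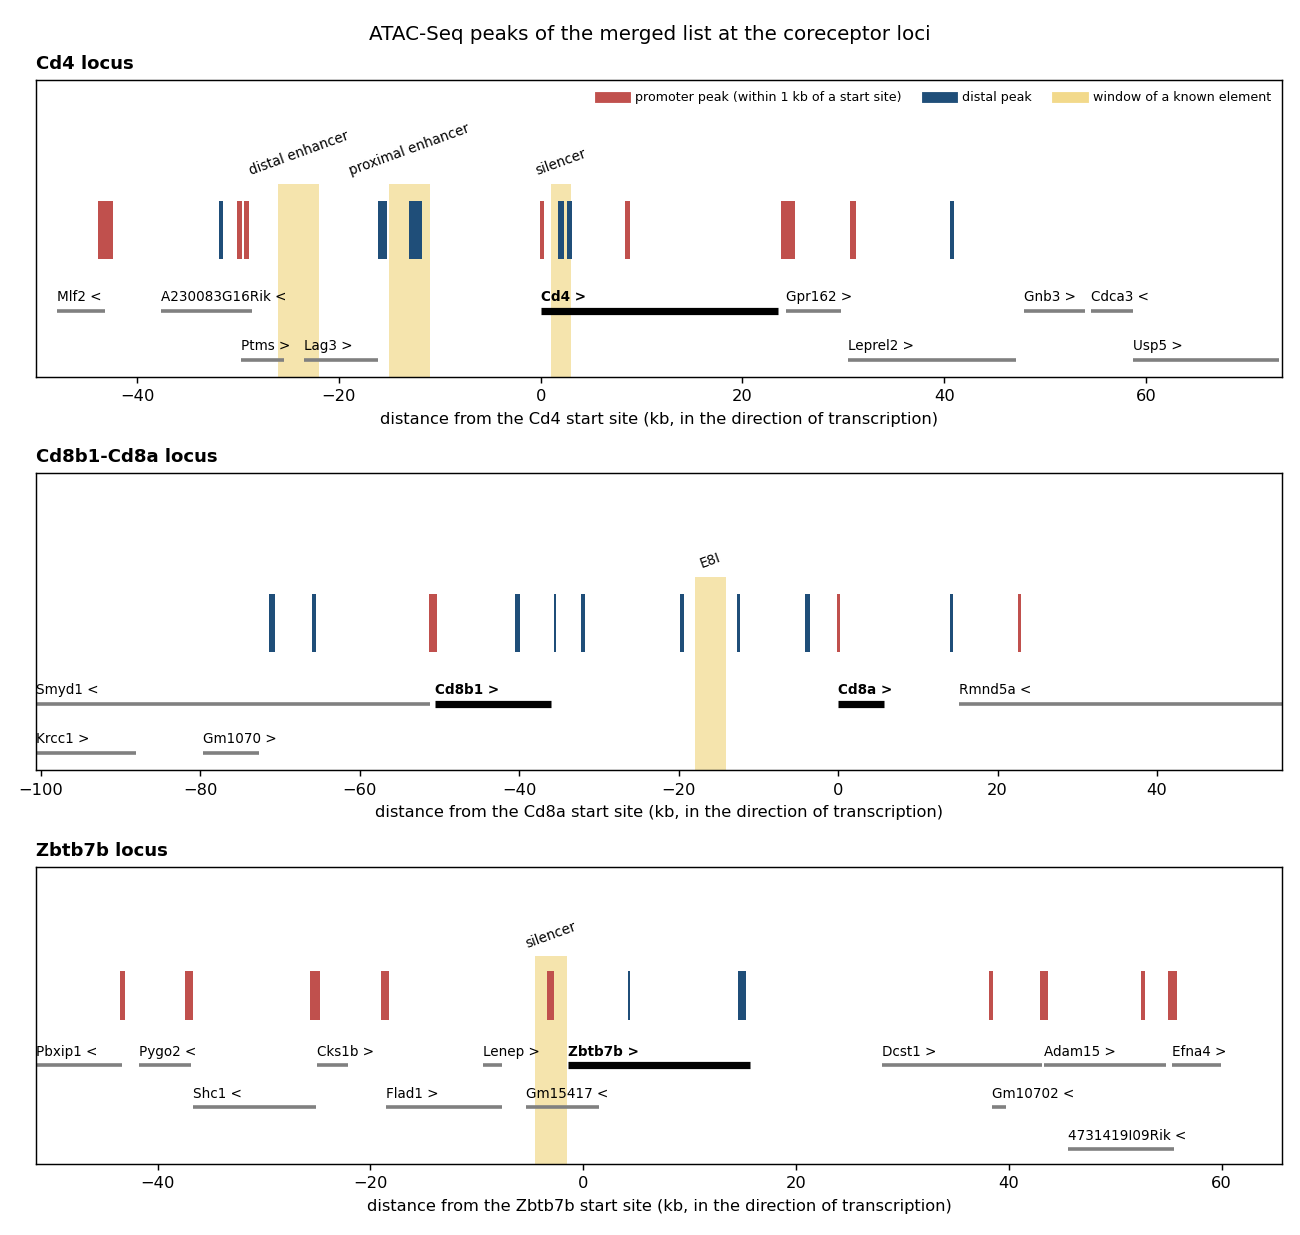
Peaks of the merged list along the 3 loci. The horizontal axes give the distance in kb from the start of Cd4, Cd8a or Zbtb7b in the direction of its transcription, bars are peaks drawn to their width, red within 1 kb of an annotated start and blue elsewhere, lines below are genes and shaded bands are the windows of 5 known elements. Bars lie in the bands of the Cd4 silencer, the Cd4 proximal enhancer and the Zbtb7b silencer, and none lies in those of the Cd4 distal enhancer and E8I. How often other windows of these sizes hold a peak was not counted.

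Cd4 (ENSMUSG00000023274.7) is on the minus strand at chr6:124814710-124838239, and its chosen transcript has 10 exons. Its locus spanned 123530 bp and 9372 bp of it, or 7.59%, were covered by peaks. The promoter peak Cd4-7, at chr6:124837943-124838284, covered the start of the gene and was 342 bp wide. Of all promoter peaks in the list only 2.58% were narrower. Its ratio of observed to expected CpG dinucleotides, which is high in CpG islands, was 0.399 against a median of 0.728 over all promoter peaks. It held none of the RUNX, E-box or RBPJ cores.

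The first intron of Cd4, where the silencer lies, is 8386 bp long and held 2 peaks entirely inside it. Cd4-8, at chr6:124835887-124836472, was centred 2.059 kb after the start, and the silencer window was set at 2 kb with 1 kb to either side. Cd4-9, at chr6:124835169-124835618, was centred 2.845 kb after the start and overlapped the same window. The peaks were 586 and 450 bp wide. All 5 TGTGGT sites were in Cd4-8, and all 3 TGGGAA sites were in Cd4-9. As many RUNX cores as in Cd4-8 occurred in 65 of the 21005 distal peaks, or 0.309%. Its central 300 bases, printed above, had 4, and 0.238% of distal peaks had as many there. The closest neighbours among the 5 cores were separated by 9 bases and pointed in opposite directions, and the widest space between adjacent cores was 145 bases. As many TGGGAA sites as in Cd4-9 were held by 2.15% of distal peaks, and as many as the 2 in its central 300 bases by 3.28%. The list says nothing about whether RUNX or RBPJ was bound there.

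A further peak over the gene body, Cd4-10 at chr6:124829346-124829897, lay across the end of the first intron. It was centred 8.617 kb after the first start and covered the start of a shorter annotated Cd4 transcript, so it counted as a promoter peak. It held 2 E-boxes and 2 RBPJ cores. The rest of the gene body had no peak up to the widest gap of the locus, 14953 bp from chr6:124814393 to 124829345, which ended at Cd4-10. On the far side of that gap was Cd4-11, at chr6:124812993-124814392, a peak of 1400 bp over the start of the neighbouring gene Gpr162.

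Upstream of Cd4, 2 distal peaks stood between Lag3 and Cd4. Cd4-6, at chr6:124850026-124851260, was centred at -12.4 kb in the proximal enhancer window, which was set at -13 kb with 2 kb to either side. It was 1235 bp wide and wider than 98.2% of all distal peaks. It held 2 E-boxes, and 14.2% of distal peaks had as many over the whole peak. It also held 1 site each of the RUNX, ETS, GATA and MYB cores. Cd4-5, at chr6:124853513-124854359, was centred at -15.7 kb, just past the 3′ end of Lag3, and its width of 847 bp was above that of 90.5% of distal peaks. Like Cd4-6 it had 2 E-boxes, a RUNX and a MYB core, but no ETS or GATA core. The distal enhancer window, at -24 kb with 2 kb to either side, had no peak. It lies over the start of Lag3, a gene for an inhibitory relative of CD4, and no peak was listed within 1 kb of any start of Lag3. The nearest peak to the middle of that window was 4886 bp away, at the start of Ptms.

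The remaining peaks of the Cd4 locus lay at or within other genes. Cd4-1, the widest of the locus at 1480 bp, covered the start of Mlf2 at chr6:124880647-124882126. Cd4-3 and Cd4-4 lay 121 bp apart at the start of Ptms, with start sites of A230083G16Rik also within 1 kb, and Cd4-12 lay within 1 kb of the start of Leprel2. The distal peaks Cd4-2 and Cd4-13 were in introns of A230083G16Rik and Leprel2.

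Cd8b1 (ENSMUSG00000053044.7, chr6:71272830-71287471) and Cd8a (ENSMUSG00000053977.7, chr6:71323421-71329165) are both on the plus strand, with Cd8b1 upstream. Their joint locus spanned 156336 bp. Peaks covered 6188 bp of it, or 3.96%, which was the smallest share of the 3 loci. The Cd8a promoter peak Cd8-10, at chr6:71323273-71323653, was 381 bp wide, and 5.19% of all promoter peaks were narrower. It held 1 E-box and 1 RBPJ core, and its CpG ratio was 0.336. The Cd8b1 promoter peak Cd8-3, at chr6:71272107-71273100, was the widest of the locus at 994 bp. It also covered the start of Smyd1, a gene for a muscle methyltransferase that is transcribed in the other direction, with 602 bp between the starts, so the list cannot assign it to 1 of the genes. Its CpG ratio was 0.222. The promoter peaks of all 3 coreceptor genes thus had CpG ratios below the median of promoter peaks. The median of distal peaks was 0.214.

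Between the end of Cd8b1 and the start of Cd8a lie 35949 bp, with 5 peaks inside. All 5 were distal, and the sixth that overlapped the interval was the Cd8a promoter peak. Cd8-5, at chr6:71287739-71288081, was 0.439 kb past the end of Cd8b1 and 343 bp wide. It held none of the 7 motif cores searched. Cd8-6, at chr6:71291174-71291647, was 32 kb before the start of Cd8a and held a site of every core but GATA and MYB. The following gap separated these from the 3 peaks nearer to Cd8a.

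Cd8-7, at chr6:71303619-71304100, lay 19.6 kb before Cd8a and Cd8-8, at chr6:71310775-71311133, lay 12.5 kb before it. They were 482 and 359 bp wide. The window of E8I, set at -16 kb with 2 kb to either side, fell between them and had no peak. Cd8-7 was the nearest to the middle of the window, at 3321 bp, and a window of doubled width held both. Each of the 2 peaks had an E-box and 2 RBPJ cores, printed above, and as many RBPJ cores were held by 10% of all distal peaks over the whole peak and by 3.28% in the central 300 bases. The cores of Cd8-7 were 104 bases apart and those of Cd8-8 only 18, in both cases with their 3′ ends towards each other. Cd8-8 also held a RUNX and an ETS core, which Cd8-7 lacked, and Cd8-7 had 2 TCF/LEF cores, which Cd8-8 lacked. Cd8-9, at chr6:71319291-71319865, was 3.84 kb before Cd8a. It was the widest peak of the interval at 575 bp and held 1 RUNX and 1 MYB core. The other E8 enhancers were given no window, since their distances could not be stated with certainty.

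Facing RBPJ cores with 18 bases between them were also present in Zbtb7b-3, a peak at the starts of Cks1b and Shc1. The 30 bases of both pairs are printed to show that they share only the cores, with capitals on TGGGAA and TTCCCA.
Pair in Cd8-8, chr6:71311056-71311085, plus strand: TGGGAAagatcgagtagagagaacTTCCCA
Pair in Zbtb7b-3, chr3:89222833-89222862, plus strand: TGGGAAtcgcacccccagacgtgtTTCCCA
In the whole list 8 of the 32527 peaks held such a pair at 18 bases, or 0.0246%, and 2 of the 8 were those of the coreceptor loci. At spacings of 15, 16 and 17 bases, 3, 4 and 2 peaks of the list held a pair, and 0 of them was at these loci. The spacing of 18 was singled out after the pairs had been seen, so these counts are only a description.

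Within and outside the CD8 genes the list had 5 more peaks. Cd8-4, at chr6:71282939-71283485, was in intron 4 of Cd8b1 and held 1 E-box and 1 TCF/LEF core. Over Cd8a no peak was listed other than that at its promoter. Upstream of Cd8b1, Cd8-1 and Cd8-2 were centred at -20.4 and -15.1 kb from its start, in a part of Smyd1 outside the chosen transcript. Downstream of Cd8a, Cd8-11 was centred 14.23 kb after the start of that gene. Cd8-12, 22.79 kb after the start, counted as a promoter peak by a short transcript of Rmnd5a and had 3 MYB cores, and 0.859% of promoter peaks had as many.

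Zbtb7b (ENSMUSG00000028042.8) is on the minus strand at chr3:89181566-89198698, with 10 annotated start sites. No peak lay within 1 kb of any of them. The smallest distances were 1250 and 1364 bp, and 2 kb sufficed to give the gene a promoter peak. Zbtb7b-5, at chr3:89200062-89200654, was the nearest upstream peak. It was centred at -3.074 kb from the chosen start, in the silencer window at -3 kb with 1.5 kb to either side, and was 593 bp wide. It lay 1364 bp from the outermost annotated start, at chr3:89198698. A window counted from that start still overlapped it, but one counted from the innermost start, at chr3:89191111, did not. It counted as a promoter peak only through a start of the non-coding transcript Gm15417. Its GC content of 62.1% and CpG ratio of 0.663 were above the medians of 50.1% and 0.214 for distal peaks. For promoter peaks, the class it counted in, the medians were 60.5% and 0.728. It held no TGTGGT, and the only one of the 7 cores found in it was GATA. In a search for the second RUNX core TGCGGT, added after the first result was known, it had 1 site.

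The body of Zbtb7b had 2 distal peaks. Zbtb7b-6, at chr3:89192843-89193102, was in the first intron 4.311 kb after the chosen start. At 260 bp it was the narrowest of the 36 peaks, and 0.724% of all distal peaks were narrower. It held 1 E-box and 1 RBPJ core. Zbtb7b-7, at chr3:89182011-89182750, was in the last of 3 exons, 14.9 kb after the start. It was 740 bp wide, with a GC content of 63.4% and 1 RBPJ core. From there on followed the widest gap of the 3 loci, 22893 bp from chr3:89159118 to 89182010.

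All other peaks of the Zbtb7b locus lay within 1 kb of a start of a neighbouring gene. Zbtb7b-3, at chr3:89222003-89223000, was the widest at 998 bp and covered the starts of Cks1b and Shc1. It held 4 ETS cores, and 1.36% of promoter peaks had as many or more over the whole peak. Its central 300 bases had 1 ETS core, and 25.8% of promoter peaks had as many or more there. Zbtb7b-3 also held 2 RUNX cores 3 bases apart, neither of them in that central stretch. Upstream were also peaks at the starts of Pbxip1, Pygo2 and Flad1. Downstream were 4 peaks. Zbtb7b-8 was within 1 kb of a start of Dcst1 but was centred in intron 9 of that gene. Adam15 had a peak at each of 2 starts, and 1 of these peaks, Zbtb7b-10, was centred in its intron 20. The last peak was at the starts shared by Efna4 and the non-coding 4731419I09Rik.

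**Figure D2:**
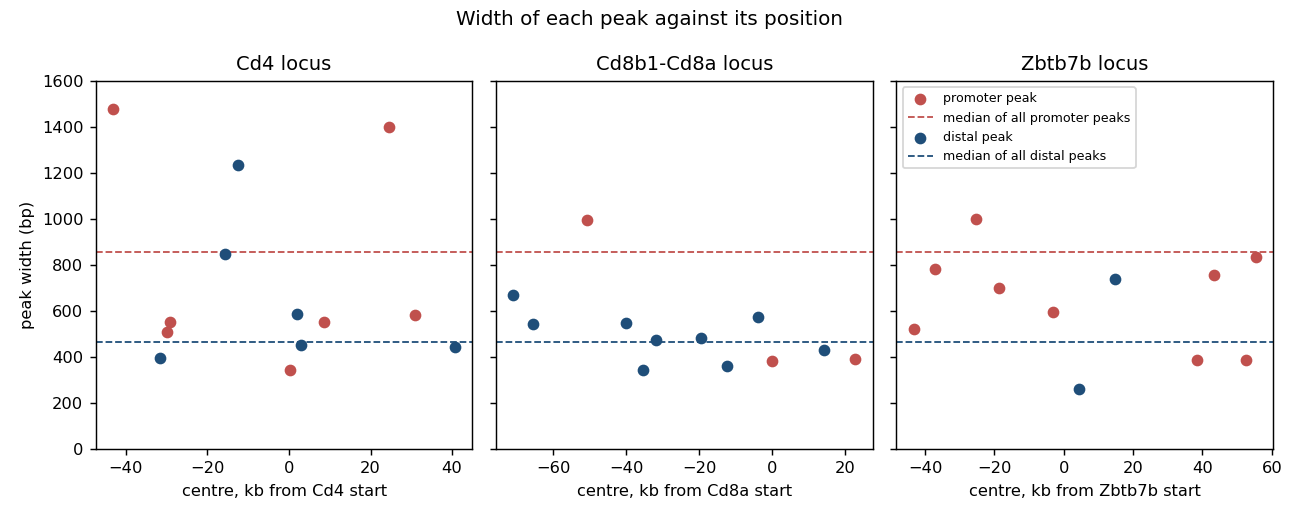
Width of each of the 36 peaks in bp against the distance of its centre in kb from the start of Cd4, Cd8a or Zbtb7b. Red points are promoter peaks and blue points distal peaks, and dashed lines are the medians of all 11522 promoter (855 bp) and 21005 distal peaks (465 bp) of the list. The promoter peaks of Cd4 and Cd8a, at 0 on the axes, lie below both lines. The peak of 1235 bp in the Cd4 proximal enhancer window is the widest distal peak of the 3 loci.

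The median width was 583 bp for the promoter peaks of the loci and 482 bp for their distal peaks, beside 855 and 465 bp in the whole list. The plot of widths against position shows where the narrow and wide ones lay. A peak width depends on the signal and on how the peaks of the libraries were joined, so it is no measure of accessibility.

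The windows of other protein-coding genes give a scale for the number of peaks. With the same 50 kb to either side, the median over all genes was 3 for all peaks and 1 for distal peaks. Cd4 had 13, more than 98.1% of genes, and 6 distal peaks, more than 91.7%. Cd8b1 had 11 peaks, 9 of them distal, and 98.1% of genes had fewer distal peaks. For Cd8a the numbers were 9 and 7, with fewer distal peaks at 94.7% of genes. Zbtb7b also had 11 peaks, more than 95.1% of genes, but its 2 distal peaks exceeded only 54.5% of genes. That number rests on the start sites used, since with starts of protein-coding transcripts alone Zbtb7b had 5 distal peaks. Over the gene body alone, Cd4 had 4 peaks, more than 94.5% of genes, while Cd8a with 1 was at the median. The windows of Cd8a and Cd8b1 share peaks, as do those of many neighbouring genes, so the genes are not independent of each other. Windows with many genes also hold many start sites, as at Cd4 and Zbtb7b.

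**Figure D3:**
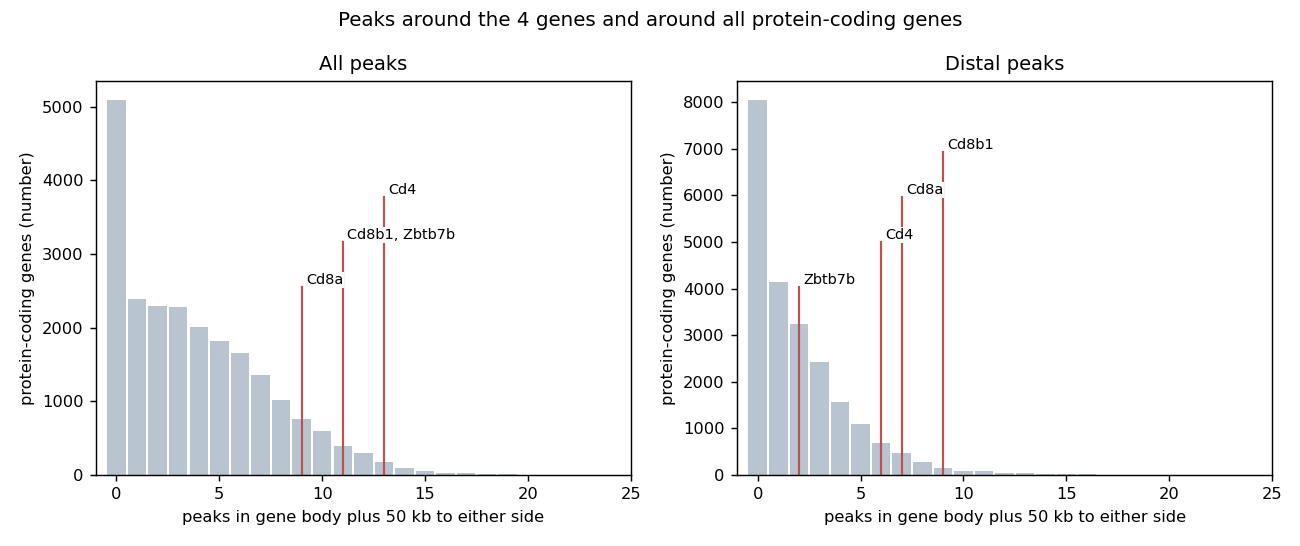
Number of peaks in the gene body plus 50 kb to either side for all 22380 protein-coding genes (bars, number of genes at each count) and for the 4 genes (red lines, whose height has no meaning). The left panel counts all peaks and the right panel distal peaks, and in the right panel Zbtb7b, with 2, lies among the common values while Cd8b1, with 9, lies in the thin upper end. The axes end at 25 peaks.

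Across the loci the RUNX core was in 13 of 36 peaks (36.1%), against 45.5% of all distal and 34.1% of all promoter peaks over their whole widths. The RBPJ core was in 15 peaks (41.7%, against 39.2% and 48.4%), and the E-box CAGCTG also in 15 (41.7%, against 43.9% and 40.5%). The MYB core CAACTG was in 12 peaks (33.3%), and in 26.8% of all distal and 26.3% of all promoter peaks. The ETS core GGAAGT was also in 12, against 39.7% of distal and 49.9% of promoter peaks in the list. For the TCF/LEF core CTTTGA the count was 7 (19.4%, against 34.4% and 31%). For the GATA core AGATAA it was 6 (16.7%, against 22.3% and 16.5%). All cores were searched on both strands, and sites of different cores could share bases. These comparisons depend on the stretch searched: for TCF/LEF, 16.7% of the 36 peaks held the core in the central 200 bp, against 16.4% of all distal and 7.05% of all promoter peaks. When the core TGCGGT also counted, 16 of the 36 peaks held a RUNX core, and 50.8% of all peaks did.

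**Figure D4:**
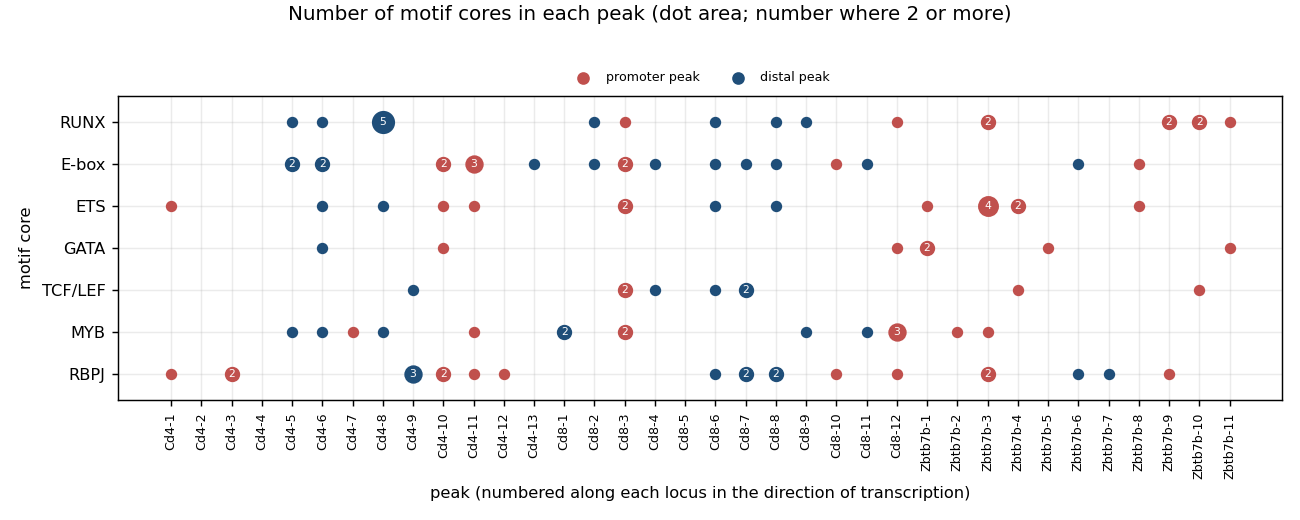
Number of sites of each of 7 motif cores (rows) in each of the 36 peaks (columns, numbered along each locus). Dot area grows with the number of sites, the number is printed where it is 2 or more, and colours separate promoter (red) and distal (blue) peaks. The largest dot is the RUNX core in Cd4-8 with 5 sites, and RBPJ cores are repeated in Cd4-9, Cd8-7 and Cd8-8 among distal peaks and in Cd4-3, Cd4-10 and Zbtb7b-3 among promoter peaks.

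Genes for factors known to act on these loci were checked for a peak at their own start. All 18 on the list had one within 1 kb, against 46.9% of protein-coding genes. They include the RUNX genes Runx1 and Runx3 with their partner Cbfb, the E protein genes Tcf3 and Tcf12, Gata3, Myb, the TCF/LEF genes Tcf7 and Lef1, and Tox, whose product is needed for the CD4 lineage. Runx1 had 12 peaks over its gene body and Runx3 had 6. Among the genes of the Zbtb family, which share the domains of ThPOK, 28 of 36 had a promoter peak, and Zbtb7b was 1 of the 8 without.

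Markers of other cell types were checked in the same way. Of the progenitor T cell markers 11 of the 14 that could be matched had a promoter peak, and Cd3d, Il2ra and Cd7 had none. The count was 1 of 5 for myeloid markers, namely Spi1, and 3 of 4 for erythroid markers, all but Hbb-b1. Over all protein-coding genes the share was 46.9%, and lists of 4 and 5 genes are too short to be told apart from it. A promoter peak is no measure of transcription, and the list cannot say whether Cd4 or Cd8a was expressed in these cells.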

How the data were processed

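Beko cells were assayed by ATAC-Seq in 6 libraries, 3 with GSI and 3 with DMSO, grouped by their labels. According to the methods, the authors aligned reads to mm9 with HISAT2 (2.2.1 in the submitters' processing notes), removed duplicates with Picard, called peaks with MACS2 without an input control and kept those present in 3 of the 6 libraries and outside blacklisted regions. This keeps peaks of 1 treatment and drops peaks found in fewer libraries. Any shift of reads for the transposase offset is not given in the sources used here. The deposited list holds the positions of the peaks in bp, and its score column is 0 throughout, so no level could be used.

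Starts were counted from 0 in the list and are printed from 1. Genes and sequences came from NCBIM37, which is the same build as mm9, and GENCODE vM1, and RefSeq synonyms resolved older symbols. Promoter peaks lay within 1 kb of an annotated start. Distances were taken from the coding transcript with a CCDS tag and the longest coding sequence. Element windows are rounded textbook distances and not coordinates from a file. Peaks were named when they overlapped a gene body, a start, an element window or the Cd8b1 to Cd8a interval, or were the widest of a locus, and others are given by number. Zbtb7b-3, Cd8-12 and the spacing of RBPJ pairs were described further after their values were seen. The members and lists were chosen with earlier results of these data known. The result of 1 marker list is not reported here. Python 3.11.15, numpy 2.4.6, scipy 1.17.1 and matplotlib 3.10.9 were used, and the counting steps were tested on simulated data. Alternatives changed the window, the promoter distance, the transcripts used, a minimum width of 500 bp, the joining of peaks within 1 kb, the element windows and the part of the peak searched for cores.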

Additional observations from a re-analysis of the deposited data

How the results depend on the processing

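No paired analysis was possible because all libraries were merged into 1 list, and leaving out a library could not be run for the same reason. With 10 kb to either side in place of 50 kb, the Cd4 locus had 6 peaks (2 distal, 3913 bp covered), the Cd8 locus 7 (5 distal, 3744 bp) and the Zbtb7b locus 3 (1593 bp). With 100 kb, the Zbtb7b locus had 23 peaks (10 distal, 13587 bp) and peaks covered 9552 bp of the Cd8 locus. Keeping only peaks of at least 500 bp left 3 distal peaks at Cd4, 5 peaks at the Cd8 locus (4 distal, 3330 bp) and 1 distal peak at Zbtb7b. It also left 7 peaks with an E-box, 3 with a TCF/LEF and 8 with an RBPJ core. Where start sites came from protein-coding transcripts alone, Zbtb7b had 5 distal peaks. In the central 200 bp, 8 peaks had a RUNX core (22.2%, against 25.6% of all distal and 9.55% of all promoter peaks). An ETS core was in 7 (19.4%, against 21.3% and 18.5%) and a MYB core in 5 (13.9%, against 11.7% and 6.34%). An RBPJ core was in 7 (19.4%, against 16.4% and 13.3%) and a GATA core in 0 (against 8.93% and 3.11%). In the central 300 bp, a setting added after the data were seen, 2 had a GATA core (5.56%, against 13.5% and 4.75%). The smaller stretches and the width limit search less sequence. The other 57 alternative values moved by 1.5 times or less. A start site had a peak at all 4 genes within 2 kb, and at 2 with a minimum width of 500 bp, when Cd8a lost its peak. At that width Cd4 also lost Cd4-7 (342 bp), and it kept a peak only through Cd4-10 (552 bp) at the start of a shorter transcript. Element windows with a peak rose from 3 to 4 of 5 with doubled windows and also when distances ran from any annotated start. The added element differed. With doubled windows it was E8I, and the Cd4 distal enhancer stayed without a peak. From any annotated start it was the Cd4 distal enhancer, through Cd4-5 and a Cd4 start other than the chosen one, and E8I stayed without. How often windows of the same sizes hold a peak elsewhere was not counted, so no background stands beside these counts. The Cd4, Cd8 and Zbtb7b loci held 10.5, 7.68 and 9.39 peaks per 100 kb. The merged list limits every statement to presence of a peak.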
